A study of Saccharomyces cerevisiae with 6 samples.

Results

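Genes of tRNA modification enzymes were examined in budding yeast treated with paraquat (methyl viologen), a compound that passes electrons to oxygen inside cells and so generates superoxide. The 38 listed genes comprise 15 with a TRM name and 23 others. Probes were matched by gene symbol, in the platform annotation or the current RefSeq name, which found 36 of the 38 genes, 14 with a TRM name and 22 others, among 5693 features measured on all 3 arrays. All 36 had a value on every array, so none was lost to the filter on missing values. The genes were listed by name and function when results of the same treated against untreated comparison were already known. Their log ratios are therefore given as a description, without a test of the genes as a set. Single genes were called by a test across all features.

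Cultures of strain S288C in exponential growth in YPD medium were exposed to paraquat at 35 ppm, and RNA was taken at 2 h. Untreated cultures of the same strain were grown to the same density and then for 2 h more. Per the design text 3 independent biological samples were hybridised, each on 1 array with the cDNA of treated cells labelled with Cy5 and that of untreated cells with Cy3. Every array was read by the scanner at a high and a low laser power. Dye and treatment cannot be told apart, because the treated sample carried Cy5 on every array. The value of a gene on an array is the mean of its readings at both powers, or the only reading where 1 is missing, and the 3 arrays are the replicates. A 2-colour ratio gives no level of a transcript in either culture, so the strain and the abundance of single genes could not be checked from these values.

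Transfer RNAs are modified after transcription at many positions. Methyltransferases, pseudouridine synthases and dihydrouridine synthases act mostly on the body of the molecule and support its folding and stability. Enzymes of the anticodon loop, which add thiol, carboxymethyl, wybutosine or isopentenyl groups or convert adenosine to inosine, affect how codons are read. In yeast some of these marks are known to change under oxidants, and TYW1 is an iron-sulfur enzyme, a class that superoxide can damage.

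No tRNA modification gene passed the test across all features. In limma, with Benjamini-Hochberg adjustment over 5693 features and a threshold of 0.05, 0 of the 36 genes were called higher, where 0.0351% of all features were, and 0 were called lower, where 0% of all features were. At an unadjusted p under 0.05, limma placed 2 of the 36 higher, TRM112 and URM1, against 5.48% of all features, and 1 lower, PUS7, against 5.29%. These counts come from the comparison that was known when the genes were listed, and nothing is read from them. Signs assume that a deposited value is log2 of Cy5 (treated) divided by Cy3 (untreated). The channel order in the labels makes this likely, but no source used here states it. With the opposite direction every value would change sign.

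Differences between treated and untreated cultures were small for the 36 genes. Mean log2 ratios ran from -0.45 for PUS7 to 0.48 for TRM112, 26 of the 36 lay within 0.2 of 0, and 6 lay at least 0.3 from 0, beside 24.4% of all features. A mean past 2-fold was found for 0 of the 36, beside 0.105% of all features. Of the 108 array values, 1 was beyond 2-fold. The standard deviation (SD) over the 3 arrays exceeded the size of the mean for 26 of the 36 genes. The median SD was 0.19 for these genes, beside 0.30 over all features. A mean above 0 was found for 22 of 36 genes, or 61.1%, where 49.2% of all features had one. The median of the 36 means was 0.067, beside -0.0065 over all features, and single arrays moved it, to 0.13 without replicate 1, 0.035 without replicate 2 and 0.034 without replicate 3. The sign of a gene's mean turned for 17 of the 36 genes when 1 of the arrays was left out. No share over all features is given for the counts within 0.2 of 0, of single array values, of SD and of sign turns. Nothing particular to these genes is read from those counts.

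**Figure D1:**
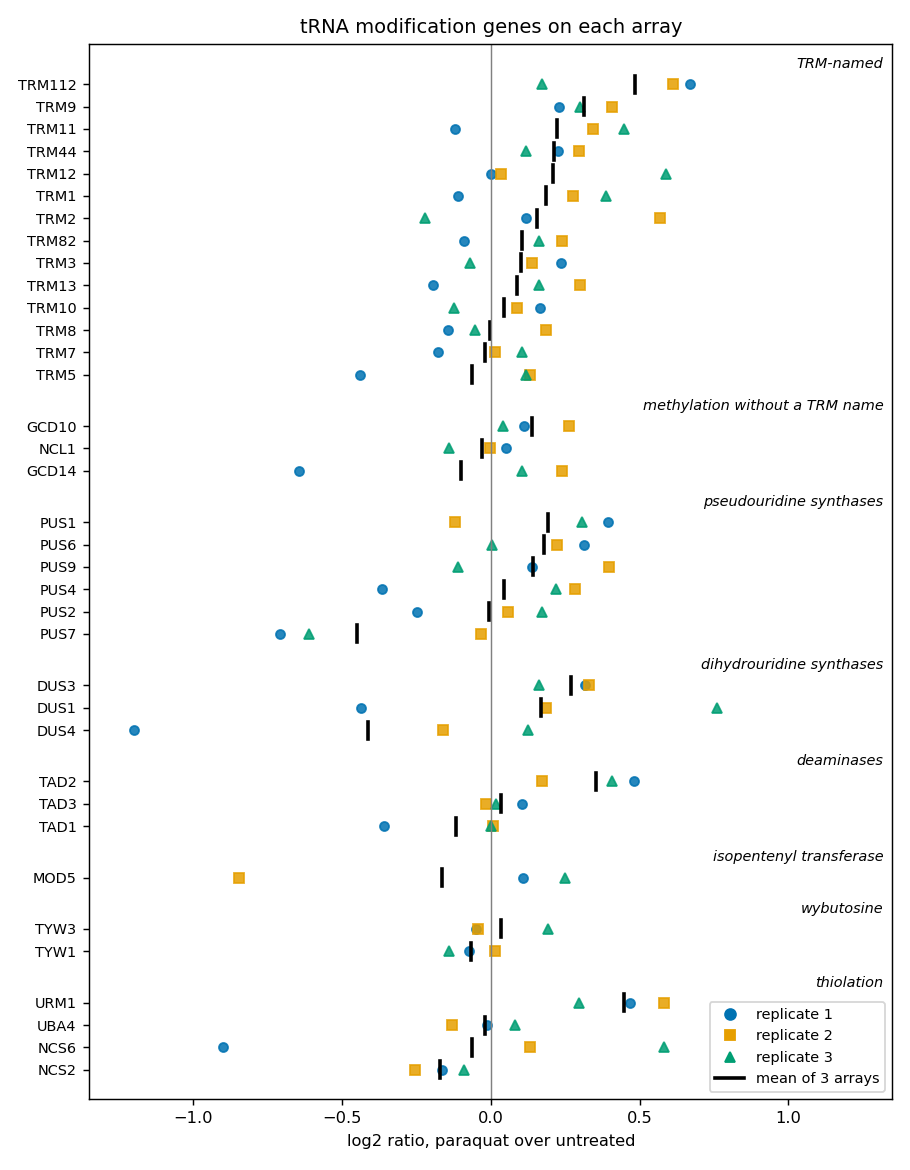
Log2 ratio of paraquat over untreated (horizontal axis) for each of the 36 measured genes (rows, grouped by enzyme class), with a circle, square and triangle for replicates 1, 2 and 3 and a black bar for the mean of the 3 arrays. Means run from -0.45 for PUS7 to 0.48 for TRM112, and most genes have arrays on both sides of 0.

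The sign was shared by all 3 arrays for 11 of the 36 genes, beside 32.0% of all features. Above 0 on every array were 9 genes, beside 16.0% of all features, and below 0 on every array were PUS7 and NCS2, also beside 16.0% of all features. The 9 were TRM112, TRM9, TRM44, TRM12, GCD10, URM1, TAD2, DUS3 and PUS6. PUS6 at 0.0024 on replicate 3 and TRM12 at 0.00047 on replicate 1 were barely above 0. A mean at least 0.3 above 0 with all arrays above 0 was seen for 4 genes, TRM112, URM1, TAD2 and TRM9, beside 9.01% of all features. The corresponding pattern below 0 was seen for 1 gene, PUS7, beside 8.26% of all features.

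The arrays differed in where these genes lay. On replicate 1 their median was -0.032 and 17 of 36 were above 0. On replicate 2 the median was 0.16 with 27 above 0, and on replicate 3 it was 0.12 with 26 above 0. Of all features, 50.6%, 53.1% and 48.0% were above 0 on the same arrays. The lowest of its 3 values fell on replicate 1 for 18 genes, on replicate 2 for 6 and on replicate 3 for 12. Across the 36 genes, whose values on an array share its hybridisation and normalization, replicates 1 and 2 had a Pearson's r of 0.28, replicates 1 and 3 of 0.0040 and replicates 2 and 3 of 0.076. Across all features the same pairs of arrays gave 0.16, 0.22 and 0.025.

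Genes with a TRM name lay above the other members in the median, by a difference that was largest on replicate 2. The 14 measured TRM-named genes had a median of the means of 0.13, with 11 above 0, and the 22 others had a median of 0.014, with 11 above 0. The difference of the medians was 0.12, and computed on each array it was -0.013 on replicate 1, 0.22 on replicate 2 and 0.026 on replicate 3, with an SD of 0.13 over the 3 arrays. The 0.12, a difference of medians of means and not the average of the array differences, was no larger than that SD. On replicate 2 all 14 TRM-named genes were above 0, from 0.015 for TRM7 to 0.61 for TRM112, beside 13 of the 22 others. On replicate 1 the TRM-named genes were split, with 7 above 0, and on replicate 3 they had 10 above 0. Without replicate 2 the difference of the medians was 0.036 and the median of the TRM-named genes 0.060, and without replicate 1 that median was 0.20. With an additive effect of the fields of the probe number removed from each array, the difference was 0.081 and the median of the TRM-named genes 0.12.

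**Figure D2:**
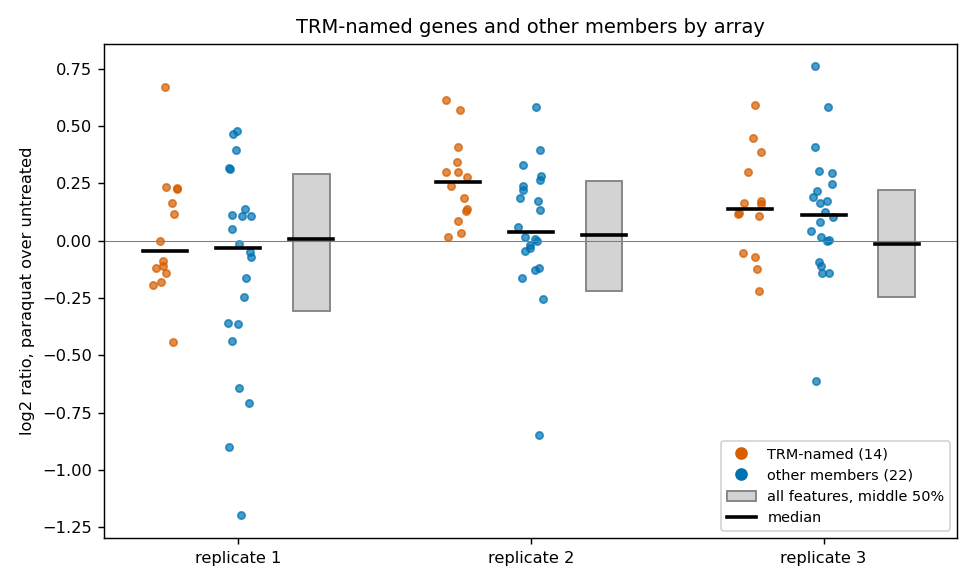
Log2 ratio (vertical axis) of the 14 TRM-named genes (orange points) and the 22 other members (blue points) on each array, with grey boxes for the middle 50% of all features and black lines for medians. The TRM-named genes all lie above 0 on replicate 2, with a median of 0.26 beside 0.036 for the others, while both medians lie below 0 on replicate 1.

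A TRM name does not mark every methylation gene. NCL1, GCD10 and GCD14 also methylate tRNA, and TRM12 adds another group in wybutosine synthesis. Grouped by reaction, the 16 measured methylation genes had a median of 0.10 and the 20 others of 0.034, a difference of 0.069. On replicates 1, 2 and 3 that difference was 0.013, 0.23 and -0.057.

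TRM112 had the highest mean of the 36 genes. Its small protein binds and activates several methyltransferases, among them Trm9 and Trm11 on tRNA. TRM112 (YNR046W) was at 0.67 on replicate 1, 0.61 on replicate 2 and 0.17 on replicate 3. All arrays were above 0, with replicate 3 the lowest, and its own scans disagreed, with -0.049 at high and 0.39 at low power. The mean was 0.48 ± 0.27 (SD, n = 3 arrays), or 1.40-fold, with a limma standard error of 0.20, and it ranked 220 from the top among the 5693 features.

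TRM9 (YML014W) encodes the methyltransferase that, with Trm112, completes the carboxymethyl side chain of wobble uridines. It was at 0.23, 0.41 and 0.30 on replicates 1, 2 and 3, read in high power scans alone. The 3 values lay close together, at a mean of 0.31 ± 0.091 (SD, n = 3 arrays), but the mean was 0.19 after detrending. Detrending took an additive effect of the fields of the probe number, used as a proxy for spot position, out of each array. That effect held 14.1%, 18.6% and 9.85% of the variance between features on replicates 1, 2 and 3. TRM11 (YOL124C), the catalytic partner of Trm112 for a methylguanosine of the tRNA body, was at -0.12, 0.34 and 0.45, so the arrays disagreed in sign. Its mean was 0.22 ± 0.30 (SD, n = 3 arrays), and 0.39 without replicate 1.

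Against its partners TRM112 was higher on replicates 1 and 2 and lower on replicate 3. TRM9 minus TRM112 was -0.44, -0.20 and 0.13 on the 3 arrays, a mean of -0.17 ± 0.29 (SD, n = 3 arrays). TRM11 minus TRM112 was -0.79, -0.27 and 0.27, a mean of -0.26 ± 0.53. Neither difference exceeded the spread between arrays. Trm112 also binds Mtq2, which methylates a translation release factor, and Bud23, which methylates ribosomal RNA. These genes are outside the list and were looked up after the values of TRM112 were seen. MTQ2 was at 0.35, 0.56 and 0.22, above 0 on every array, and BUD23 at 0.10, 0.36 and -0.11.

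The genes of the tRNA guanosine methyltransferase Trm8 and its noncatalytic partner Trm82 had means near 0. TRM8 (YDL201W) was at -0.14, 0.19 and -0.054 on replicates 1, 2 and 3, with a mean of -0.0043 ± 0.17 (SD, n = 3 arrays). TRM82 (YDR165W) was at -0.089, 0.24 and 0.16, with a mean of 0.10 ± 0.17. Both were lowest on replicate 1 and highest on replicate 2. TRM8 lay below TRM82 on all 3 arrays, by -0.054, -0.053 and -0.22, a mean difference of -0.11 ± 0.094. After detrending this order was not kept, with a mean of 0.12 for TRM8 and 0.10 for TRM82.

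Genes of the ribose methyltransferases had means between -0.019 and 0.21. TRM44, which acts on serine tRNA, was at 0.22, 0.30 and 0.12, above 0 on every array, with a mean of 0.21 ± 0.091 (SD, n = 3 arrays) and of 0.11 after detrending. TRM3, which methylates a guanosine of the D loop, averaged 0.10 ± 0.16. TRM13, an enzyme of the acceptor stem, averaged 0.089 ± 0.26. TRM7, which acts in the anticodon loop, averaged -0.019 ± 0.15, with arrays at -0.18, 0.015 and 0.11. TRM13 and TRM11 are next to each other on chromosome XV, the only neighbours among the 36 genes, and both were below 0 on replicate 1 and above 0 on replicates 2 and 3.

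Of the base methyltransferases, TRM1, which dimethylates a guanosine, averaged 0.18 ± 0.26 (SD, n = 3 arrays), with arrays at -0.11, 0.28 and 0.39. Its mean was 0.035 after detrending. TRM2, which makes the methyluridine of the T loop, averaged 0.15 ± 0.40 and ranged from -0.22 on replicate 3 to 0.57 on replicate 2. Without replicate 2 its mean was -0.052. TRM10, a guanosine methyltransferase, averaged 0.043 ± 0.15.

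The products of TRM5, TYW1, TRM12 and TYW3 act in that order on phenylalanine tRNA to build wybutosine, a guanosine derivative beside the anticodon. TRM5, the methyltransferase of the first step, was at -0.44, 0.13 and 0.12 on replicates 1, 2 and 3, with a mean of -0.064 ± 0.33 (SD, n = 3 arrays). The iron-sulfur enzyme gene TYW1 (YPL207W) was at -0.073, 0.014 and -0.14, with a mean of -0.067 ± 0.078. TRM12 stood near 0 on replicates 1 and 2, at 0.00047 and 0.034, and at 0.59 on replicate 3. Its mean of 0.21 ± 0.33 thus rested on 1 array, and it was 0.017 without replicate 3. TYW3 averaged 0.032 ± 0.14.

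The methyladenosine enzyme of tRNA consists of the catalytic subunit Gcd14 and the binding subunit Gcd10, and is required for the stability of initiator tRNA. GCD10 (YNL062C) was at 0.11, 0.26 and 0.042 on replicates 1, 2 and 3, above 0 on every array, with a mean of 0.14 ± 0.11 (SD, n = 3 arrays). GCD14 (YJL125C) was at -0.64, 0.24 and 0.10, with a mean of -0.10 ± 0.47. The genes were close on replicates 2 and 3 and far apart on replicate 1, with GCD10 minus GCD14 at 0.75, 0.026 and -0.062. The sign of GCD14 turned without replicate 1, to 0.17, and after detrending, to 0.16. NCL1, the methylcytosine enzyme, averaged -0.031 ± 0.10.

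PUS7 had the lowest mean of the 36 genes, while 4 of the 6 measured pseudouridine synthase genes had a mean above 0. Pus7 modifies tRNA and also other RNAs, small nuclear and messenger RNA among them. PUS7 (YOR243C) was at -0.71, -0.033 and -0.61 on replicates 1, 2 and 3. It was below 0 on all 3 arrays but near 0 on replicate 2, where its scans differed in sign, at -0.11 and 0.045. On replicate 1 the high power scan gave -0.26 and the low power scan -1.16, the widest gap between scans among the members on that array. The mean was -0.45 ± 0.37 (SD, n = 3 arrays), and -0.29 on high power scans alone.

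The other pseudouridine synthase genes were spread around 0. PUS1, which acts at several tRNA positions, averaged 0.19 ± 0.28 (SD, n = 3 arrays), with arrays at 0.39, -0.12 and 0.31. PUS6 averaged 0.18 ± 0.16. PUS9, a mitochondrial enzyme, averaged 0.14 ± 0.25. PUS4, which makes the pseudouridine of the T loop, averaged 0.045 ± 0.36, with replicate 1 at -0.37 and the others at 0.28 and 0.22. PUS2, also mitochondrial, averaged -0.0053 ± 0.22.

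The 3 listed dihydrouridine synthase genes had means on both sides of 0. These flavin enzymes reduce uridines, mostly in the D loop. DUS3 (YLR401C) was at 0.32, 0.33 and 0.16 on replicates 1, 2 and 3, above 0 on every array, with a mean of 0.27 ± 0.092 (SD, n = 3 arrays). DUS4 (YLR405W) was at -1.20, -0.16 and 0.12, with a mean of -0.41 ± 0.70. Replicate 1 carried the DUS4 mean, which was -0.020 without it and -0.16 after detrending. DUS1 was also far apart between arrays, at -0.44, 0.19 and 0.76, with a mean of 0.17 ± 0.60, and on replicate 3 its scans read 0.47 at high and 1.05 at low power.

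Of the adenosine deaminases, Tad2 is the catalytic and Tad3 the partner subunit of the essential enzyme that makes wobble inosine. TAD2 (YJL035C) was at 0.48, 0.17 and 0.41 on replicates 1, 2 and 3, all above 0, with a mean of 0.35 ± 0.16 (SD, n = 3 arrays). After detrending the mean was 0.19. TAD3 (YLR316C) stayed near 0, at 0.11, -0.018 and 0.017, with a mean of 0.035 ± 0.064. TAD2 exceeded TAD3 on all 3 arrays, by 0.37, 0.19 and 0.39, a mean difference of 0.32 ± 0.11. TAD1, which deaminates an adenosine beside the anticodon of alanine tRNA, was at -0.36, 0.0080 and -0.00023, with a mean of -0.12 ± 0.21, and its mean was 0.0039 without replicate 1.

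MOD5 (YOR274W), the isopentenyl transferase of the adenosine beside the anticodon, was far apart between arrays. It was at 0.11, -0.85 and 0.25 on replicates 1, 2 and 3. The mean of -0.16 ± 0.60 (SD, n = 3 arrays) rested on replicate 2, where both scans were low, at -0.74 and -0.95, and it was 0.18 without that array.

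Thiolation of wobble uridine uses the ubiquitin-like sulfur carrier Urm1, which Uba4 activates, and ends with the complex of Ncs6 and Ncs2. URM1 (YIL008W) was at 0.47, 0.58 and 0.29 on replicates 1, 2 and 3. All were above 0, and the mean of 0.45 ± 0.15 (SD, n = 3 arrays), or 1.36-fold, ranked 280 from the top among the 5693 features. After detrending it was 0.29. UBA4 (YHR111W) lay near 0, at -0.014, -0.13 and 0.082, with a mean of -0.021 ± 0.11. URM1 exceeded UBA4 on all 3 arrays, by 0.48, 0.71 and 0.21, a mean difference of 0.47 ± 0.25.

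The genes of the thiolation complex differed in their pattern over the arrays. NCS2 (YNL119W) was at -0.16, -0.25 and -0.092, below 0 on every array, with a mean of -0.17 ± 0.081 (SD, n = 3 arrays). NCS6 (YGL211W) was at -0.90, 0.13 and 0.58, with a mean of -0.062 ± 0.76, the largest SD of the 36 genes. NCS2 minus NCS6 was 0.74, -0.38 and -0.68, so its sign was not shared by the arrays. Without replicate 1 the mean of NCS6 was 0.36.

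**Figure D3:**
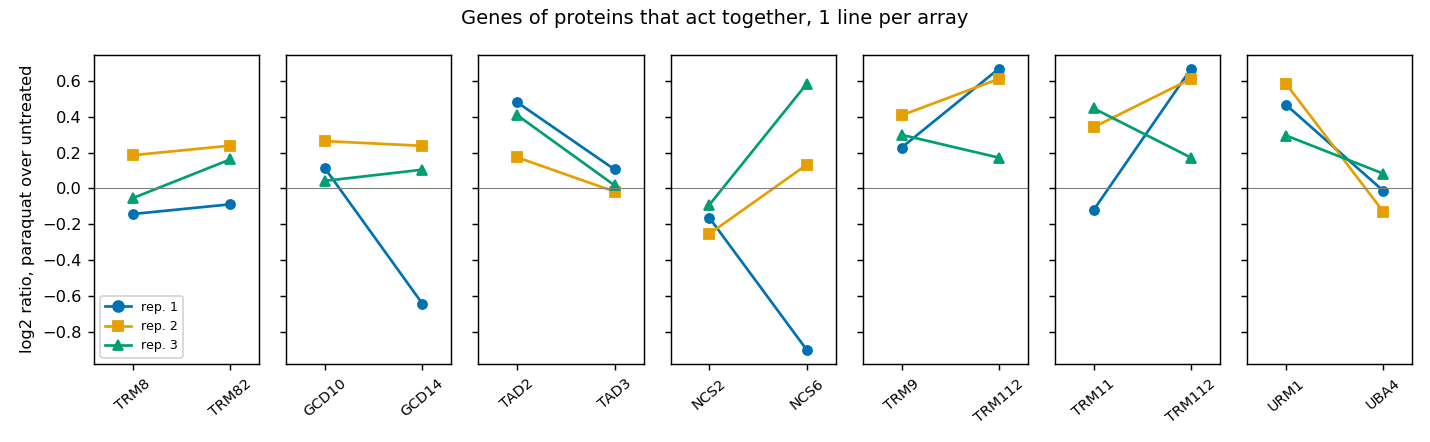
Log2 ratio (vertical axis) of 7 pairs of genes whose proteins act together, and 1 line per array. TAD2 lies above TAD3 and URM1 above UBA4 on all 3 arrays, TRM8 lies below TRM82 on all 3, and in the other 4 pairs the order of the genes differs between arrays.

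TRM140 and PUS3 were not found under those symbols. Their current names are ABP140 and DEG1, and their probes were looked up after the other values were seen. Trm140 makes methylcytosine in the anticodon loop of threonine and serine tRNA, and its gene had 2 features that disagreed. The feature joined from 2 probes was at 0.31, 0.51 and -0.24 on replicates 1, 2 and 3. The other was at 0.42, -1.27 and 0.022, so the features were far apart on replicate 2. DEG1, a pseudouridine synthase gene of the anticodon arm, was at 0.066, 0.025 and -0.012. With both genes added and the ABP140 features averaged, the median of the TRM-named genes was 0.10 and that of the others 0.027. With the joined ABP140 feature alone the TRM-named median was 0.15.

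Both scans of an array read the same hybridisation, so the gap between them reflects the reading alone and not the spread between cultures. All 36 genes were read at high power on every array, and 14, 12 and 28 of them at low power on replicates 1, 2 and 3. All 6 scans were present for 9 genes, and 7 genes had 3 values, 1 per array. Where both scans had a value, they differed by a median of 0.16, 0.13 and 0.19 on the 3 arrays. Over the 6026 features with a value in any scan, not only those measured on all 3 arrays, these medians were 0.20, 0.14 and 0.14. Where both were present, the scans of an array had opposite signs in 18 of 54 pairs, or 33.3%, beside 20.4% over the 6026 features. TAD1 showed this on replicate 2, at -0.24 and 0.26, and on replicate 3, at 0.29 and -0.29. Its array means near 0 thus average opposed readings.

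**Figure D4:**
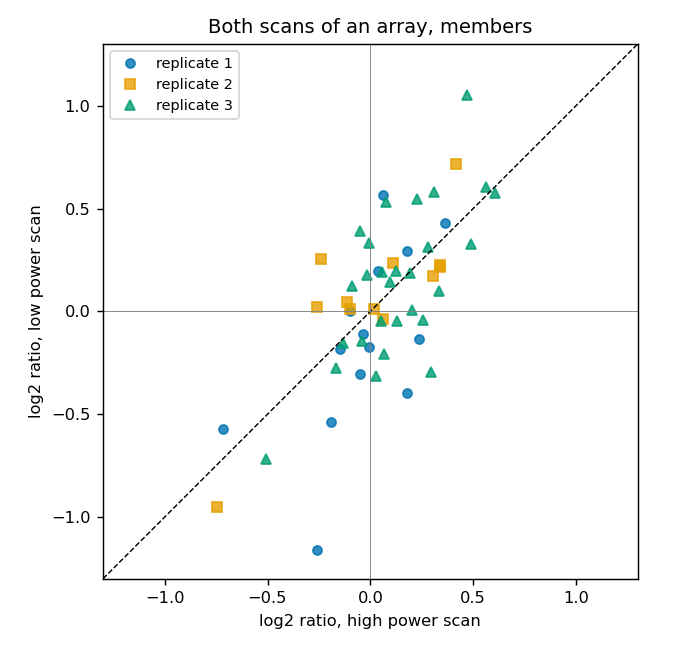
High power (horizontal axis) against low power (vertical axis) log2 ratio of each of the 36 genes with both scans on an array, 54 points in all, with a dashed line of equality. The point farthest from the line is PUS7 on replicate 1, at -0.26 and -1.16, and 18 of the 54 points have scans of opposite sign.

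Other genes listed for tRNA modification, outside the 38, also had 0 members past the threshold of limma's adjusted p in either direction, of 30 measured. The list also holds AHP1, the gene of a peroxiredoxin and not of a tRNA modification enzyme, at 0.69, 0.26 and 0.10 on replicates 1, 2 and 3. Over all features 0.0351% passed it. By unadjusted p-values below 0.05 limma placed 1 higher and 0 lower, beside 5.48% and 5.29% of all features. The median of the 30 genes was 0.0078, with 16 of 30 above 0, beside 49.2% of all features. The highest was TRM732, a partner of Trm7 in anticodon loop methylation, at 1.42, 0.35 and 0.52 on replicates 1, 2 and 3. RTT10, the other Trm7 partner, was at 0.035, 0.0077 and -0.051. SMM1, the remaining dihydrouridine synthase gene, followed at 0.30, 0.61 and 0.30, above 0 on every array.

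At the low end of that list stood THG1, which adds the guanosine that marks histidine tRNA, at -1.26, -0.43 and 0.39, and TAN1, needed for acetylcytidine in tRNA, at -0.32, -0.43 and -0.20. The arrays of THG1 disagreed in sign, while those of TAN1 were all below 0. ELP3, the iron-sulfur subunit of the Elongator complex that starts the side chain Trm9 completes, averaged -0.093 ± 0.23 (SD, n = 3 arrays).

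Of 23 measured genes of tRNA processing and export, 0 passed limma's adjusted threshold, beside 0.0351% of all features. Counting unadjusted p-values below 0.05, limma placed 3 higher and 2 lower, beside 5.48% and 5.29% of all features. The median of the 23 genes was -0.073, and 10 of 23 were above 0, beside 49.2% of all features. The list was drawn broadly, and MAF1 (-0.16), ARC1 (-0.25) and TEF4 (-0.40) in it are not core genes of these steps. The highest were POP6 and POP8, subunits of ribonuclease P, with means of 0.51 and 0.49. The lowest were CCA1, the enzyme that adds the tRNA end, at -0.79, -1.07 and -0.33, and the export receptor MSN5 with a mean of -0.41.

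Cytosolic aminoacyl-tRNA synthetases, which load the tRNAs, had 0 of 20 measured genes with a mean above 0. Over all features 49.2% had one, and of the modification genes 22 of 36. The median of the synthetase means was -0.18, and by array -0.25, -0.26 and -0.24. The lowest were SES1 with a mean of -0.61 and THS1 with -0.55, and the highest were YHR020W with -0.0086 and FRS1 with -0.016. Of the 20, 0 passed limma's adjusted threshold, beside 0.0351% of all features. By unadjusted p-values below 0.05 limma placed 0 higher and 3 lower, beside 5.48% and 5.29% of all features. RNA polymerase III and its factors, which transcribe tRNA, had a median of 0.010 over 17 genes, with RPC11 (0.60) and RPC17 (0.43) the highest and RET1 (-0.51) and TFC3 (-0.42) the lowest. Of these 17, 0 passed limma's adjusted threshold, and by unadjusted p-values below 0.05 limma placed 2 higher and 2 lower. The shares over all features are those given for the synthetases. The difference between these lists and the modification genes was not tested.

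**Figure D5:**
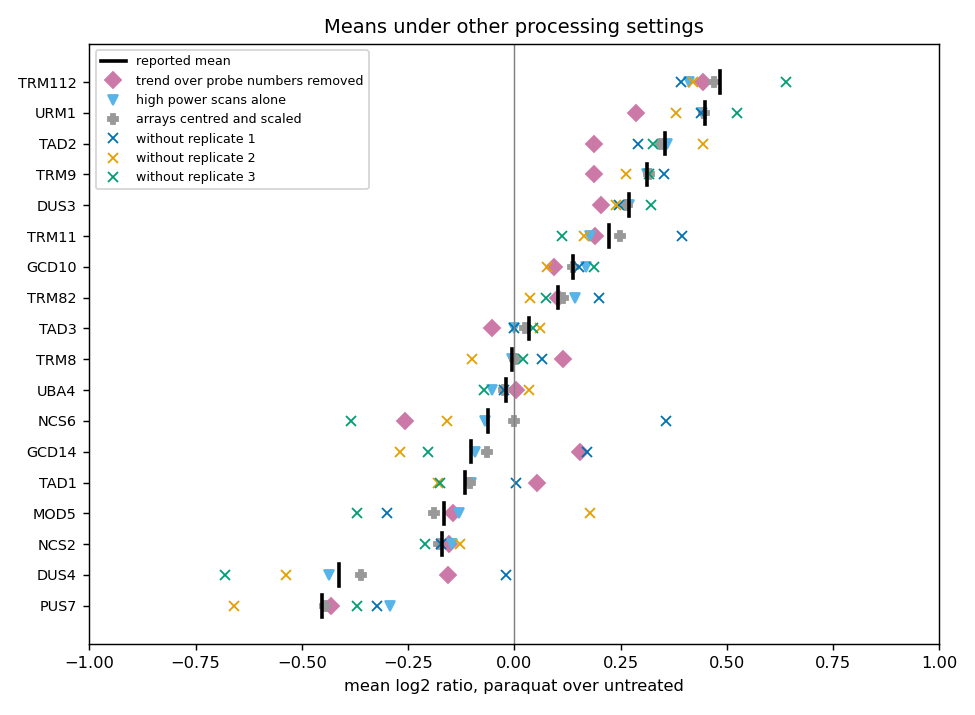
Mean log2 ratio (horizontal axis) of the 18 genes given array by array for the naming rule or a partner (rows), with a black bar for the reported mean and symbols for 6 other settings. TRM112, URM1, TAD2, TRM9, DUS3, TRM11, GCD10 and TRM82 stay above 0 and PUS7, DUS4 and NCS2 below 0 under all settings shown, while DUS4 nearly reaches 0 without replicate 1.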

How the data were processed

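The authors deposited a log ratio of Cy5 and Cy3 for each spot, LOWESS normalized on flag 0 spots per the labels, and it was read as log2. The base and the sign convention are stated in no source used here. Symbols of 5513 of 6912 probes came from the platform annotation, 5508 updated through the RefSeq table of assembly R64. Probes identical in all scans to 9 decimals were joined (78 sets, the 2 TRM2 probes among them), and both scans of an array averaged. A high power scan gave 5730, 6006 and 5946 values and a low power scan 2496, 2826 and 4076 on replicates 1, 2 and 3. The number of arrays limits precision, with a median limma standard error of 0.20.

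In R 4.3.3, limma 3.58.1 (lmFit, eBayes, two-sided against 0, 2 residual and 19.1 prior degrees of freedom) was fitted to 5693 features with Benjamini-Hochberg adjustment at 0.05. A run on simulated data drew independent values from limma's own fitted variance. It held no effect of spot position, so it does not test the fit for these arrays. Members, lists and tests were chosen with earlier results of these data known. Values by array are given for the 5 highest and 5 lowest members, those at least 0.3 from 0 with 1 sign on all arrays, and 7 pairs of partners, and for further members where the arrays differ. Alternatives were single scans, filters, centring, scaling, variance settings, detrending (an additive effect of each of the 4 fields of the probe number fitted and removed), and leaving out each array. Probe sequences were not used here.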

Additional observations from a re-analysis of the deposited data

How the results depend on the processing

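Each log ratio already sets a treated against an untreated culture on 1 array, and no further pairing was possible because the series has 1 group of arrays. The count of the 36 members past limma's adjusted threshold was 0 under every setting run. Over all features the count was 2 as reported, 0 on high power scans alone, with high power values filled with low power values, with arrays centred, with arrays centred and scaled and without variance moderation, 1 after detrending over probe numbers, 6 with values on at least 2 of 3 arrays and with robust variance moderation, 14 with named probes alone, 18 on low power scans alone, 19 with values in all 6 scans, and 0 to 70 when leaving out 1 array (0 without replicate 1, 70 without replicate 2, 8 without replicate 3). Members with a mean above 0 numbered 22 of 36, and 5 of 9 on low power scans alone and 6 of 9 with values in all 6 scans, where fewer members were measured, and 21 to 27 otherwise. The median of the 22 other members, 0.014, was -0.0015 on high power scans alone and with their gaps filled. It was -0.044 to 0.10 without 1 array (0.10 without replicate 1, -0.044 without replicate 3). On low power scans alone it was -0.071, taken only over those of the 9 measured members that have no TRM name. The difference between TRM-named and other members kept its sign in all settings, which share the same 3 arrays, at 0.036 to 0.16. The 0.16 came from low power scans alone, where 9 members were measured. On replicate 1 taken singly the difference was -0.013. With TRM140 and PUS3 added the difference over the 3 arrays was 0.077, or 0.13 with the joined ABP140 feature alone, settings chosen after seeing the data. Of 184 recomputed means of 18 members, 180 moved by less than 1 SD over arrays, and 7 of the 18 changed sign under at least 1 setting. Of all 36 members, 17 changed sign without 1 array and 9 after detrending, counts given without a share over all features. The cause of these shifts was not tested. Scans without a low power value leave 1 reading per array for many members.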
